A study of Rattus norvegicus with 9 samples.

Results

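The transcripts of 7 S100 calcium-binding protein genes and of annexin A2 (Anxa2) were followed in rat H9c2(2-1) cells given energized structured water (ESW), cells given control water (CW) and untreated cells (Control). These 8 genes, out of 36856 gene symbols in the deposited tables, were chosen by name, with their family membership and the earlier fold changes of S100a10 and S100a6 in ESW relative to Control in view. That comparison is therefore given for the members as a description, with no p-value, and its counts of called members support nothing. The comparison of ESW with CW uses the same ESW libraries. Its p-values for members are therefore not independent of the choice and are no separate support. All 8 members passed the expression filter, as did 14706 genes in all. S100a13 and S100a1 passed it near 1 CPM (CPM being the read count relative to the scaled library total), with 23 to 50 and 13 to 32 reads per library.

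H9c2(2-1) is a clonal line of myoblasts derived from embryonic BD1X rat heart, of WT genotype in all groups, and all groups were grown in serum-supplemented DMEM. Each group has 3 libraries of total RNA. Cells were kept with ESW or CW, each diluted to 0.01, over 72 h, and fresh dilutions were supplied every 24 h, while Control cells stayed in normal growth medium. The labels do not say that a group's 3 libraries are from separate cultures, so the spread behind each p-value is that of these libraries and may be technical. Library totals ran from 26748673 to 48574618 estimated reads. Of 8 myoblast and muscle markers, Cdh15, Myod1, Des and Myog had medians of 34.2, 8.72, 5.06 and 2.44 CPM over the 9 libraries, whereas Myf5, Pax7, Chrna1 and Ckm stayed under 1 CPM throughout. The cells also carried Col1a1 at a median of 32585 CPM and Vim at 2801 CPM, and the heart muscle genes Nppa, Nppb, Myh6, Actc1 and Nkx2-5 were under 1 CPM in every library. Of the other cardiomyocyte markers listed, Tnnt2 had 51.4 to 62.3 CPM, Gata4 4.81 to 6.45 CPM and Tnni3 0.457 to 1.22 CPM.

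S100 proteins are small vertebrate proteins with a pair of EF-hand calcium-binding loops that act mostly as dimers. Calcium opens a binding face for target proteins, such as annexins, myosin or enzymes. S100A10 is the exception in that its loops no longer bind calcium and it is held in the open form. Annexins bind acidic membrane lipids in the presence of calcium. A dimer of S100A10 joins a pair of annexin A2 molecules to a heterotetramer that bridges membranes and actin and, at the cell surface, serves as a receptor site for plasminogen. In the heart, S100A1 of cardiomyocytes acts on the ryanodine receptor and the SERCA pump, while S100A4 and S100A6 are known from fibroblasts and from growing or stressed cells.

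The 7 S100 genes lie on rat chromosome 2 and Anxa2 on chromosome 8. In the order of the annotation, S100a1, S100a13, S100a14, S100a16, S100a3, S100a4, S100a5 and S100a6 follow one another, and S100a11 and S100a10 are direct neighbours at the far end of the same region. Between S100a1 and S100a10 the annotation holds 64 protein-coding genes that are no members, many of them genes of skin differentiation. Of these, S100a3, Pglyrp4 and Kprp were the 3 that were tested, all under 4 TPM on average, and 0 of the 3 were called in any contrast (median log2 fold change of the 3 genes -0.03 for ESW relative to Control, -0.29 for ESW relative to CW and 0.21 for CW relative to Control).

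Promoter sequences from RefSeq, on the build GRCr8, are available for 6 of the 8 members, S100a6, S100a4, S100a11, S100a13, S100a16 and Anxa2. Shown are those of S100a6 and S100a4, which varied together across the libraries, of S100a11, an abundant S100 gene of similar transcript length that did not, and of Anxa2. Each runs from 250 bases before to 50 bases after the annotated start, 5′ to 3′ on the strand of the gene, which is the plus strand in all 4. Capitals mark the letters TATAAA (the TATA box), TGANTCA (the AP-1 site) and GGGCGG (the GC box), searched on both strands. The 4 windows are chr2:178398287-178398586, chr2:178388279-178388578, chr2:181874882-181875181 and chr8:78986002-78986301.
S100a6: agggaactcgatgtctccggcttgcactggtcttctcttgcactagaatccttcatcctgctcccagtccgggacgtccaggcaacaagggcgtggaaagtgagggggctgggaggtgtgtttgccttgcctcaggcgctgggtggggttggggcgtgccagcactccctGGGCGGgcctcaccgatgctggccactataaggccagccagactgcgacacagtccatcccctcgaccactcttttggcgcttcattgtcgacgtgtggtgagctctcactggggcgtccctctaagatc
S100a4: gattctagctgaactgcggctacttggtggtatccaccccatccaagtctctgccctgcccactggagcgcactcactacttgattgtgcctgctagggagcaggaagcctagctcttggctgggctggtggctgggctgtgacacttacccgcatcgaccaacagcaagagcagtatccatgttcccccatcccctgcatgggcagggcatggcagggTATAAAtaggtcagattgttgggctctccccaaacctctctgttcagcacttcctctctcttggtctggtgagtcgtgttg
S100a11: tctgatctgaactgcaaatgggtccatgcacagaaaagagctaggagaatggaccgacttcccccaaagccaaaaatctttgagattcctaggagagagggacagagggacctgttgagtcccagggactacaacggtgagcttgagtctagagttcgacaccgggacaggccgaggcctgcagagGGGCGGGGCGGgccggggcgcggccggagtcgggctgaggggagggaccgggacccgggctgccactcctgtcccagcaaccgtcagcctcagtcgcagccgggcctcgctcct
Anxa2: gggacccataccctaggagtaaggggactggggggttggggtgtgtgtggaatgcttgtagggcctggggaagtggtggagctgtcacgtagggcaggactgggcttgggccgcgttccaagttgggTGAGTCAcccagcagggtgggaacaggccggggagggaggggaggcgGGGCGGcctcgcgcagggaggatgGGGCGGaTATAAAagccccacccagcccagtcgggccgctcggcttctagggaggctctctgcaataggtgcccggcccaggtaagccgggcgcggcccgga
S100a4 holds TATAAA starting at position -31 relative to the start, and Anxa2 holds it at -45. These letters were found in 14.2% of all 33469 promoter windows of the same length. The S100a6 window holds no TATAAA and has 1 GGGCGG, at -80. S100a11 has GGGCGG at -64 and at -59, which overlap in 1 base, S100a13 has it at -82, and Anxa2 has it at -76 and -52. GGGCGG is present in 33.1% of all windows. The AP-1 letters TGANTCA occur in the window of Anxa2, at -123, and in 7.33% of all windows. TTCNNNGAA (the GAS element of STAT factors) was found in 0 of the 6 windows and in 8.87% of all, and TGACNNNGC (the core of the antioxidant response element) was found in S100a16 at -147 and in 12.1% of all.

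The members fell into an abundant and a scarce set. In TPM, a level that is scaled for transcript length and can be compared between genes, S100a6 averaged 4869 and S100a11 4769 over the 9 libraries, the ranks 16 and 17 of all gene symbols. S100a4 averaged 3548 TPM (rank 26), S100a10 1155 TPM (rank 135) and Anxa2 1022 TPM (rank 157). S100a16, S100a13 and S100a1 averaged 11.3, 7.28 and 2.91 TPM. S100A1, the form typical of adult heart muscle, was thus the member with the lowest transcript level in these cells.

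The order of the levels was not the same in the 3 groups. In ESW it was S100a11 (4830 ± 60.1 TPM), S100a6 (3575 ± 117), S100a4 (2993 ± 57.8), S100a10 (1025 ± 28.1) and Anxa2 (1014 ± 7.86), each as mean ± SD of 3 libraries. In CW it was S100a6 (5418 ± 716 TPM), S100a11 (4764 ± 91.3), S100a4 (3813 ± 403), S100a10 (1211 ± 15.7) and Anxa2 (1021 ± 29.7), also over 3 libraries. Control had the same order, with S100a6 at 5614 ± 1038, S100a11 at 4712 ± 97.2, S100a4 at 3837 ± 447, S100a10 at 1229 ± 32.9 and Anxa2 at 1031 ± 19.5 TPM (SD, n = 3). The libraries of neighbours in the order overlapped for S100a10 and Anxa2 in ESW and for S100a6 and S100a11 in CW. All other neighbours in the 3 orders were separated by their libraries, and S100a16, S100a13 and S100a1 took the last 3 places in this order in each group. Together the 8 members made up 1.35 ± 0.0289% of all TPM in ESW, 1.63 ± 0.119% in CW and 1.65 ± 0.142% in Control (SD, n = 3).

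**Figure D1:**
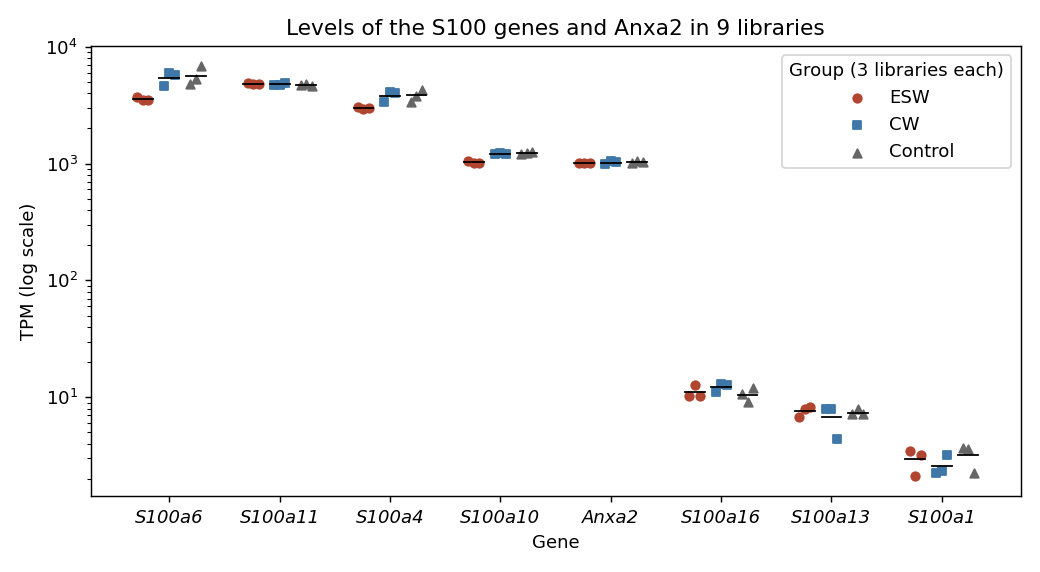
Level of each member in TPM on a log axis, 1 point per library and a bar at the mean of the 3 libraries of ESW, CW and Control. S100a6, S100a11, S100a4, S100a10 and Anxa2 lie between 987 and 6783 TPM, and S100a16, S100a13 and S100a1 lie between 2.13 and 13.1 TPM.

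Each of these genes was measured almost entirely through 1 transcript. S100a10, S100a11, S100a13 and S100a1 each have a single transcript in the tables. The main transcript held 96.5% to 98.1% of the reads of S100a6, 98.8% to 99.4% of those of S100a4, 97.8% to 98.8% of those of Anxa2 and 93.2% to 100% of those of S100a16. The S100a11-like genes S100a11l1 and S100a11l2, which can share reads with S100a11, held 26 and 69 reads over all 9 libraries. The table used for names also lists pseudogenes of S100a10, S100a11 and Anxa2 without a transcript, and reads of such copies cannot be told apart from those of the parent genes here.

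S100a10, the light chain of the annexin A2 tetramer, was lower in ESW than in either other group. It had 196, 199 and 190 CPM in ESW replicates 1 to 3, 235, 230 and 232 CPM in CW and 246, 248 and 257 CPM in Control. The 3 groups did not overlap, with ESW lowest and Control highest. The log2 fold change was -0.36 (SE 0.04) for ESW against Control, a change of -22.1%. Against CW the log2 fold change was -0.25 (SE 0.04). This difference passed edgeR's quasi-likelihood test with an adjusted p = 0.00089, with Benjamini-Hochberg adjustment over all 14706 genes. Its ESW libraries were also those of the fold change in view when S100a10 was chosen. CW was lower than Control by a smaller amount, a log2 fold change of -0.11 (SE 0.04), and this did not pass (edgeR quasi-likelihood, adjusted p = 0.297). With offsets for effective length this value was -0.03, on log2(TPM + 1) it was -0.02, and in TPM the libraries of CW (1200 to 1229) and Control (1196 to 1262) overlapped.

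S100a6, also called calcyclin, is a calcium sensor that rises in proliferating cells and fibroblasts and binds the calcyclin-binding protein CACYBP. It had the largest fitted difference of the 8 members in both comparisons of ESW. ESW libraries had 409, 381 and 365 CPM, CW libraries 483, 604 and 605 CPM and Control libraries 527, 569 and 732 CPM. All 3 ESW libraries lay below every CW and Control library, while CW and Control overlapped. The log2 fold change was -0.66 (SE 0.09) for ESW against Control. Against CW it was -0.55 (SE 0.09), a change of -31.8%, with an adjusted p = 0.0019 (edgeR quasi-likelihood test). S100a6 varied more among the libraries of CW and Control, at 13.2% and 18.5% of the mean TPM, than among those of ESW, at 3.28%. The SE from edgeR, which shares the spread across genes, was smaller than the 0.12 computed from the 6 libraries of ESW and CW alone and the 0.15 from those of ESW and Control.

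S100a4, also known as metastasin or FSP1, which binds non-muscle myosin IIA and is often used as a marker of fibroblasts, behaved like S100a6. It had 460, 456 and 438 CPM in ESW, 507, 587 and 590 CPM in CW and 545, 599 and 672 CPM in Control. All ESW libraries again lay below all others. The log2 fold change was -0.42 (SE 0.06) for ESW against Control. Against CW it was -0.32 (SE 0.06), and the fall passed the test (edgeR quasi-likelihood, adjusted p = 0.0051). Within CW and within Control, replicate 1 was the lowest library for both S100a6 and S100a4, and their log2 CPM had a Pearson correlation of 0.99 over the 9 libraries. The same measure was 0.89 between S100a10 and S100a6 and 0.90 between S100a10 and S100a4. These correlations describe libraries that also differ by group.

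S100a11 and Anxa2 did not show differences of this size. S100a11, calgizzarin, which binds annexins A1 and A2, had 824, 781 and 781 CPM in ESW, 760, 751 and 808 CPM in CW and 792, 810 and 785 CPM in Control. The libraries of the 3 groups overlapped. ESW was 1.00-fold of Control, and the log2 fold change against CW was 0.04 with a 95% interval of -0.05 to 0.13 (edgeR quasi-likelihood, adjusted p = 0.564). The interval takes the fitted SE with 6 residual degrees of freedom.

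Anxa2, the heavy chain that S100A10 binds, had 800, 824 and 808 CPM in ESW, 801, 830 and 846 CPM in CW and 847, 888 and 866 CPM in Control. Every ESW library and every CW library lay below every Control library, and ESW overlapped with CW. The log2 fold change was -0.10 (SE 0.04) for ESW against Control. It was -0.03 (95% interval -0.11 to 0.06) for ESW against CW and -0.07 (interval -0.16 to 0.02) for CW against Control, and neither passed the test (adjusted p = 0.707 and 0.532, edgeR quasi-likelihood). In TPM the libraries of Anxa2 ranged from 1005 to 1020 in ESW, from 987 to 1044 in CW and from 1018 to 1054 in Control. Its log2 fold change for ESW against Control was -0.04 with offsets for effective length and -0.02 on log2(TPM + 1). DESeq2 called Anxa2 lower in ESW against Control and edgeR did not, which is given as a description.

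**Figure D2:**
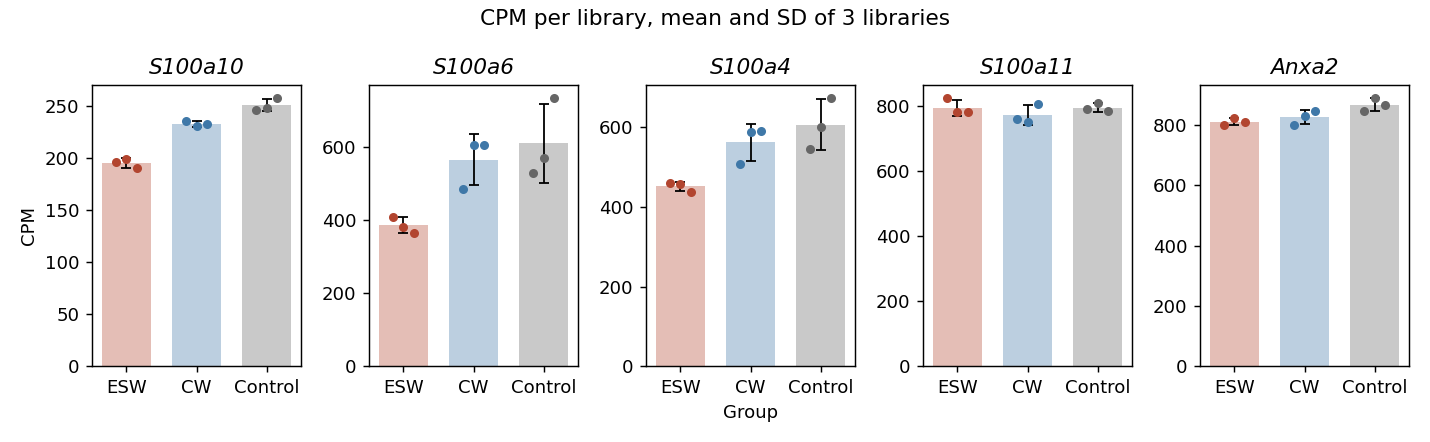
CPM of the 5 abundant members, with a point per library, a bar at the mean and an error bar of 1 SD over the 3 libraries of ESW, CW and Control. For S100a10, S100a6 and S100a4 all ESW points lie below those of CW and Control, and for S100a11 the groups overlap.

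The 3 scarce members could not be measured as closely. S100a16, a widely expressed S100 protein, had 5.37, 6.29 and 5.28 CPM in ESW, 5.63, 6.67 and 6.70 CPM in CW and 5.30, 4.80 and 6.26 CPM in Control. Its groups overlapped, and the log2 fold changes were 0.05 (SE 0.12) for ESW relative to Control, -0.17 (SE 0.12) for ESW relative to CW and 0.22 (SE 0.12) for CW relative to Control. S100a13, which takes part in the release of FGF1 and IL-1α that bypasses the secretory pathway, averaged 1.12 ± 0.0953 CPM in ESW, 0.968 ± 0.273 in CW and 1.08 ± 0.0598 in Control (SD, n = 3). Its interval for ESW against CW, -0.47 to 0.89 on the log2 scale, includes falls of the size seen for S100a10 and S100a4. S100a1 averaged 0.640 ± 0.148 CPM in ESW, 0.561 ± 0.129 in CW and 0.713 ± 0.176 in Control (SD, n = 3). Its interval for ESW against CW ran from -0.71 to 1.06. A difference of the size seen for S100a6 was therefore not detectable for S100a1 at this depth.

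**Figure D3:**
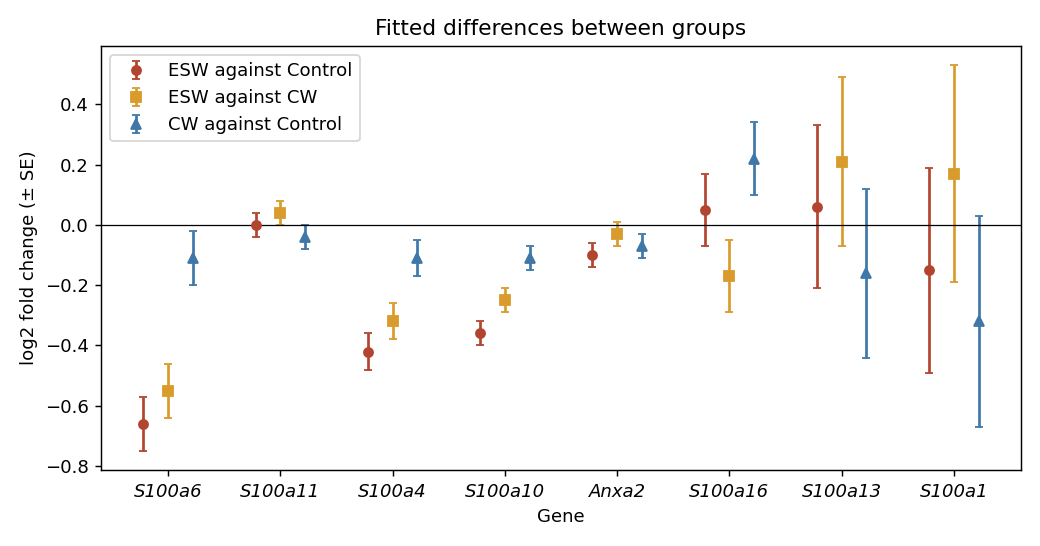
Fitted log2 fold change of each member with its SE in the 3 comparisons of ESW with Control, ESW with CW and CW with Control, where a negative value means lower in the group named first. S100a6, S100a4 and S100a10 lie well below 0 in both comparisons of ESW, S100a11 lies near 0, and the scarce S100a13 and S100a1 have wide errors.

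Across the table, 8.04% of the 14706 genes were called in ESW against Control at an adjusted p under 0.05, 3.28% lower and 4.76% higher. Of the 8 members 3 were called, all lower, and 4 had every ESW library below every Control library, as had 12.4% of all genes. Since this contrast was in view when the members were listed, nothing is read from these counts. In ESW against CW, 8.14% of all genes were called, 3.99% lower and 4.15% higher, beside 3 of 8 members lower and 0 higher. The same 3, S100a10, S100a6 and S100a4, were the members whose ESW and CW libraries did not overlap, as did those of 28.3% of all genes (13.4% with ESW below). This comparison shares its 3 ESW libraries with the one in view, and the comparison of CW with Control shares its 3 Control libraries. In CW against Control 0.177% of all genes were called, 26 in number, 0.15% lower and 0.0272% higher. Of the 8 members 0 were called by edgeR and 0 by DESeq2, and 1 of 8, S100a10, had an unadjusted p under 0.05, as had 9.87% of all genes. DESeq2 gave no adjusted p for S100a13 and S100a1 in this comparison, so it could not call them. S100a10 and Anxa2 had all CW libraries below all Control libraries, as had 7.56% of all genes, and 14.7% did not overlap in either direction. The median log2 fold change of the 8 members was -0.12 for ESW against Control and -0.10 for ESW against CW. It was -0.11 for CW against Control, and the medians over all tested genes lay between -0.01 and 0. With offsets for effective length, CW against Control gave -0.03 for S100a10, -0.06 for S100a6, -0.02 for S100a4 and Anxa2, and 0.01 for S100a11. For the scarce S100a13, S100a16 and S100a1 it gave -0.14, 0.21 and -0.28, with SE of 0.29, 0.13 and 0.36.

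The ratio of S100a10 to Anxa2 describes the supply of the light and the heavy chain transcript within a library and does not depend on how libraries are scaled to each other. In TPM it was 1.04, 0.997 and 1.00 in ESW, 1.22, 1.18 and 1.16 in CW and 1.18, 1.17 and 1.23 in Control. The ESW ratios lay below all others, at a mean of 1.01 ± 0.024, against 1.19 ± 0.0306 in CW and 1.19 ± 0.0321 in Control (SD, n = 3). A two-sided exact permutation test of ESW against CW on the log2 ratio gave p = 0.1, the smallest value that 3 against 3 libraries can give. This value only restates that the ratios of ESW and CW did not overlap. The low S100a10 values of ESW were also in view when the members were chosen. The same exact permutation test of CW against Control gave p = 0.7. The S100a10 transcript has 573 bases and that of Anxa2 1396, and the part of transcript length in this ratio was not tested. Ratios to S100a11, an S100 transcript of similar length, were also lower in every ESW library than in the others. S100a6 relative to S100a11 was 0.740 ± 0.0149 in ESW, 1.13 ± 0.138 in CW and 1.19 ± 0.244 in Control (SD, n = 3). S100a4 relative to S100a11 was 0.620 ± 0.00608, 0.800 ± 0.0776 and 0.815 ± 0.109 in ESW, CW and Control (SD, n = 3).

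**Figure D4:**
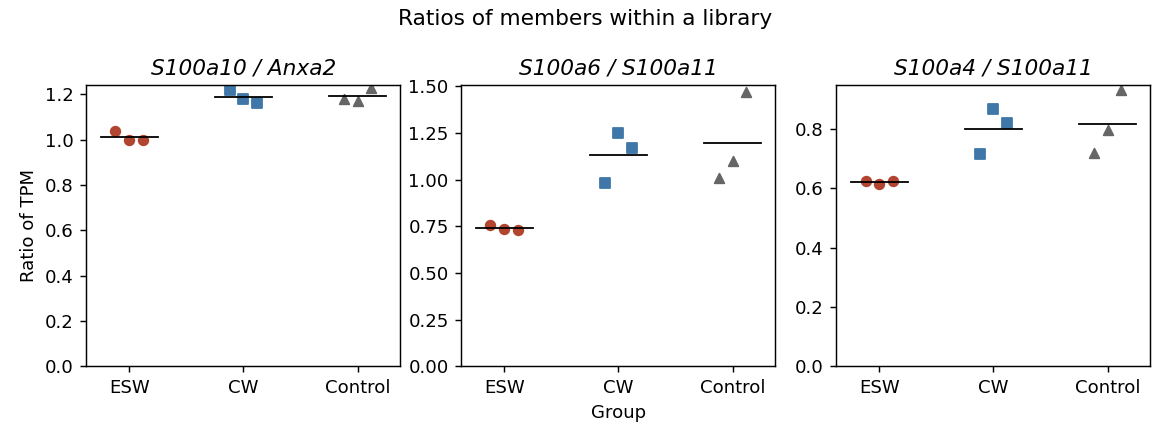
Ratio of TPM values within each library, 1 point per library with a bar at the mean, for S100a10 to Anxa2, S100a6 to S100a11 and S100a4 to S100a11 in ESW, CW and Control. In each panel the 3 ESW points lie below the 3 CW and the 3 Control points.

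Several measured features of the libraries were set beside these differences. The abundant S100 transcripts are short, with 573 bases for S100a10, 404 for S100a6, 486 for S100a4 and 504 for S100a11. Of 237 tested protein-coding genes with transcripts under 600 bases, 16% were called lower and 0.422% higher in ESW against Control, and 11.8% lower and 0 higher in ESW against CW. Among 10379 genes over 1500 bases these shares were 2.32% lower and 6.02% higher against Control, and 2.94% lower and 5.35% higher against CW. The short genes held 1.90% to 2.15% of all reads in ESW, 2.17% to 2.31% in CW and 2.14% to 2.35% in Control. Members were not left out of these short genes. S100a10, S100a6 and S100a4 are among those called lower, and S100a11 and S100a13 are also included. The part of transcript length in the values of S100a10, S100a6 and S100a4 was not tested.

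The effective length, the number of bases at which Salmon counts a fragment of a transcript as able to start, was also read out. For S100a10 it was 297, 335 and 311 bases in ESW, 332, 310 and 314 in CW and 352, 332 and 337 in Control. With offsets for these lengths the log2 fold change of S100a10 for ESW against Control was -0.27 in place of -0.36, and against CW it was -0.24. For S100a6 these values were -0.66 and -0.60, and for S100a4 they were -0.37 and -0.35. On log2(TPM + 1) with limma, the differences of ESW from CW were -0.24 for S100a10, -0.59 for S100a6 and -0.34 for S100a4, and they did not pass (adjusted p = 0.0547, 0.0722 and 0.104). These were the highest adjusted p over the 19 alternatives of this comparison. The lowest were 3.5e-09, 1.2e-39 and 1.1e-12, the second and the third from the fit without a filter, in which all genes share a common spread. Summed CPM of 8 fibroblast markers was 90951 to 94300 in ESW, 77277 to 81360 in CW and 76117 to 81250 in Control. Most of this sum was Col1a1, Col1a2 and Col3a1, with means of 38336, 33089 and 17169 CPM in ESW. In either comparison of ESW 5 of 8 were called, all with a higher mean in ESW, Vim against Control alone and Thy1 against CW alone. Dcn was not called, at 9.56, 10.5 and 9.27 CPM in ESW, CW and Control. The part of these markers in the results was not tested. Pdgfra, a defining fibroblast marker, stayed under 1 CPM throughout. In bulk RNA, fewer cells of a kind and less RNA per cell cannot be told apart. The 6 myeloid markers, among them Ptprc and Lyz2, were under 1 CPM in every library, as were S100b and Sox10 of glia.

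The remaining S100 family was close to silent. Of 11 other S100 genes listed, 10 are in the table, and S100a3 was the 1 that passed the filter, at 0.675 ± 0.168 CPM in ESW, 0.867 ± 0.15 in CW and 0.834 ± 0.0666 in Control (SD, n = 3). It was not called in any contrast. S100a8 and S100a9, the calprotectin subunits of neutrophils and monocytes, had 0 reads in all 9 libraries, and S100b, the glial form, had 26 reads in total. S100a14 had 21, S100a5 12, S100a7a 10, S100g 5 and S100z 4 reads over all libraries.

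Among the other annexins, Anxa1 fell in ESW. Anxa1, which is bound by S100A11 and mediates anti-inflammatory actions of glucocorticoids, averaged 1147 ± 22.7 CPM in ESW, 1329 ± 70.3 in CW and 1417 ± 87 in Control (SD, n = 3). Its log2 fold change was -0.31 (SE 0.05, adjusted p = 0.00054) against Control and -0.21 (SE 0.05, adjusted p = 0.0081) against CW by edgeR's quasi-likelihood test. ESW libraries lay below all CW and all Control libraries. The call against CW was lost with length offsets. Anxa11, a partner of S100A6, was higher by 0.13 on the log2 scale in ESW than in CW (SE 0.04, adjusted p = 0.0381), at 130 ± 3.43 CPM in ESW and 118 ± 2.41 CPM in CW (SD, n = 3), and it did not pass against Control (adjusted p = 0.0598). Its call was lost with length offsets and without any of ESW replicates 2 and 3 and CW replicates 1, 2 and 3. Of 8 annexins tested besides Anxa2, 1 was lower and 0 higher in ESW against Control, and 1 was lower and 1 higher in ESW against CW, with medians of 0.01 and 0.02. In CW against Control 0 of 8 were called. Anxa5, a common probe for exposed phosphatidylserine, and Anxa6 had log2 fold changes of 0.04 and 0.05 against Control.

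**Figure D5:**
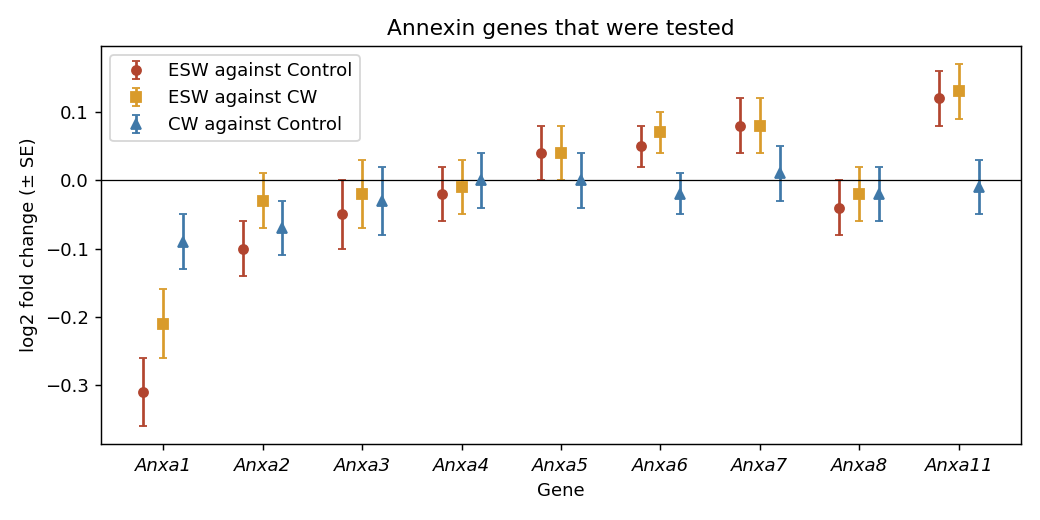
Fitted log2 fold change with its SE of Anxa2 and the 8 other annexin genes that were tested, in the comparisons of ESW with Control, ESW with CW and CW with Control. Anxa1 is lowest in both comparisons of ESW, at -0.31 and -0.21, and Anxa11 is highest, at 0.12 and 0.13.

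Of 21 genes for proteins that bind S100 proteins or the annexin A2 tetramer, 16 were tested. In ESW against Control 3 were higher and 0 lower, and in ESW against CW 2 were higher and 0 lower, with medians of 0.07 and 0.06. Dysf, dysferlin, which mends muscle membranes together with annexins and the S100A10 tetramer, had 240 ± 4.98 CPM in ESW, 213 ± 8.87 in CW and 203 ± 5.92 in Control (SD, n = 3). Its log2 fold change was 0.24 against Control (adjusted p = 0.0015) and 0.17 against CW (adjusted p = 0.0122, edgeR quasi-likelihood). Atp2a2, the SERCA2 calcium pump on which S100A1 acts, was higher by 0.15 against Control and by 0.16 against CW. Both passed edgeR's quasi-likelihood test (adjusted p = 0.026 and 0.02), and both calls were lost on log2(TPM + 1) with limma. The call against Control was also lost with length offsets and without any of Control replicates 2 and 3 and ESW replicates 2 and 3. The call against CW was also lost without any of ESW replicates 2 and 3 and CW replicate 2. The scaffold gene Ahnak, which the tetramer anchors at the membrane, had log2 fold changes of 0.08 (SE 0.06) and 0.03 (SE 0.06) against Control and CW. Cacybp, the partner of S100A6, had -0.08 and 0.05, and Myh9, the non-muscle myosin bound by S100A4, had 0.11 and 0.12, and none of these 3 genes passed. Kcnk3, Trpv5 and Trpv6, channels that S100A10 carries to the membrane, had 0 reads.

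Of 10 genes of plasminogen activation 7 were tested, and Serpine2, a protease inhibitor also called protease nexin 1, was the 1 called. It had 293 ± 2.57 CPM in ESW, 261 ± 4.57 in CW and 270 ± 4.89 in Control (SD, n = 3), log2 fold changes of 0.17 against CW (adjusted p = 0.0073) and 0.12 against Control (adjusted p = 0.0428) by edgeR's quasi-likelihood test. The call against Control was lost with length offsets, with the replicate number as a block, with only those 2 groups fitted and in 8 of 9 fits without 1 library. Plat, the tissue plasminogen activator, had 0.06 and 0.08 against Control and CW, and its receptor counterpart Plaur, for urokinase, had -0.02 and 0.01. The list medians were 0.01 and 0.08. Plg itself had 38 reads over 9 libraries and Plau 19. Of the 4 listed receptors for extracellular S100 proteins, Ager (RAGE) stood at 1.73 ± 0.243 CPM in ESW, 2.22 ± 0.260 in CW and 2.10 ± 0.790 in Control (SD, n = 3). Tlr4 and Bsg were tested too, and 0 of the 3 were called in any contrast.

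Other EF-hand genes moved in both directions. Of 17 tested, 2 were higher and 2 lower in ESW against Control, and 3 were higher and 1 lower in ESW against CW, with medians of 0.01 and 0.05. Capn1 and Capns1, the large and the regulatory subunit of calpain 1, were higher by 0.21 and 0.12 against Control and by 0.15 and 0.12 against CW. Capns1 passed narrowly (adjusted p = 0.0485 and 0.0462, edgeR quasi-likelihood), and both its calls were lost with the replicate number as a block, with only the 2 groups fitted, with length offsets and in most fits without 1 library. The call of Capn1 against CW was lost with length offsets and without any of ESW replicates 2 and 3 and CW replicates 1, 2 and 3. Rcn2, a reticulocalbin of the endoplasmic reticulum, had log2 fold changes of -0.22 and -0.15 against Control and CW, and its relative Rcn1 was higher by 0.16 against CW. The call of Rcn1 was lost with length offsets and with the replicate number as a block. It was also lost without any of Control replicate 2, ESW replicates 2 and 3 and CW replicates 2 and 3. Sri, sorcin, had a log2 fold change of -0.16 against Control and passed there alone. The call of Sri was lost with length offsets, with the block and with only those groups fitted. It was also lost without any of Control replicates 2 and 3, ESW replicates 1 and 3 and CW replicates 2 and 3.

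Over these 6 lists together, 9 genes were called in ESW against Control and 9 in ESW against CW, of 52 tested, beside 8.04% and 8.14% of all genes. In CW against Control 0 were called by edgeR and 0 by DESeq2, with 7 at an unadjusted p under 0.05, beside 9.87% of all genes. On log2(TPM + 1) with limma, Rcn2 alone was called against Control and 0 listed genes against CW. The count against Control was 4 without Control replicate 2, Control replicate 3 or ESW replicate 3, and 5 without ESW replicate 2, CW replicate 2 or CW replicate 3, and Anxa1, Capn1, Dysf and Rcn2 were called in each of these. The count against CW was 3 without ESW replicate 2 or CW replicate 2, 2 without CW replicate 3 and 1 without ESW replicate 3, with Serpine2 called in each. Anxa1 was not called against CW without ESW replicate 3 or CW replicate 3, nor Dysf without these or ESW replicate 2.

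Likeness was ranked by the Pearson correlation of log2 CPM over the 9 libraries. The ranking covered 8862 genes outside the members with a mean of at least 10 CPM, and systematic symbols such as LOC and RGD were left out. Among these, the genes most like S100a10 were Naca (0.986), Btf3l4 (0.981), Zfp711 (0.970) and Mrps18c (0.969). Naca, a subunit of the nascent polypeptide-associated complex, averaged 458 ± 11.3 CPM in ESW, 537 ± 4.01 in CW and 567 ± 29.3 in Control (SD, n = 3). Its transcript has 885 bases and that of Zfp711 has 4070. The genes most like S100a6 were Psmb1 (0.993), Fkbp3 (0.990), Rps14-ps7 (0.988) and Ns5atp4 (0.985). Psmb1, a subunit of the proteasome core, averaged 164 ± 6.67 CPM in ESW, 200 ± 13.6 in CW and 208 ± 22.8 in Control (SD, n = 3). Reads of Rps14-ps7 can be shared with the ribosomal protein gene Rps14. The points share libraries and groups, and the correlations are given as descriptions.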

How the data were processed

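Total RNA of 9 H9c2(2-1) samples was sequenced by Illumina technology, per the labels' protocols. Salmon 1.10.3 and DESeq2 are named in the submitters' processing notes. The estimated counts per RefSeq transcript, the TPM values and the effective lengths in bases were made by the authors' Salmon run, per the file headers. The estimated counts, as deposited, are fractional. The annotation release and the bias options are not given in the sources used here.

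All 114122 transcripts were matched by accession to RefSeq genes of the assembly GRCr8, and counts and TPM were summed per symbol. Counts were rounded and fitted with edgeR 4.0.16 in R 4.3.3: TMM scaling, filterByExpr, 1 model with a mean per group, quasi-likelihood tests, and a call at an adjusted p under 0.05. The SE is the absolute log2 fold change divided by the square root of F, and log2 CPM uses a prior count of 2. Members and lists were chosen with earlier results of these data known. All members are named, and of each list at most 5 called genes by the smallest p, with the genes most alike by correlation. Other genes were picked for their known role after their values were seen, and some genes counted in the lists are not reported here by name. Alternatives included DESeq2 1.42.0, limma 3.58.1, other filters, length offsets and leaving out each library. The fit was tested on simulated data drawn from its own means and spreads, which cannot show that it holds for these libraries. The labels give no batch. Precision is set by 3 libraries per group, and no library was left out.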

Additional observations from a re-analysis of the deposited data

How the results depend on the processing

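S100a10, S100a6 and S100a4 stayed lower in ESW under all 19 alternatives of each comparison, with log2 fold changes of -0.37 to -0.26, -0.76 to -0.51 and -0.50 to -0.34 against Control and of -0.27 to -0.24, -0.65 to -0.50 and -0.38 to -0.28 against CW. Against CW, all 3 were called in all 9 fits without 1 library. With limma on log2(TPM + 1) the members past the threshold were 1 of 8 against Control, S100a10, given as a description, and 0 of 8 against CW, where 86 and 0 genes were called in all and 1 and 0 listed related genes. Without a filter on low counts edgeR gave all genes a common spread, and its p-values, such as 1.2e-39 for S100a6 against CW, rest on that. With average transcript length offsets 440 genes were called against Control and 1 in CW against Control, and 4 and 5 listed related genes against Control and CW. CW against Control had 273 called genes without a filter, 71 with DESeq2, 16 with only the groups compared and 0 with limma on TPM. Its value for S100a11 changed sign to 0.01 with length offsets and to 0.02 on log2(TPM + 1) and log2(TPM + 0.1). Without 1 library, called genes ran from 397 to 1544 for ESW against Control (397 without ESW replicate 3, 534 without Control replicate 2, 590 without Control replicate 3), from 314 to 1486 for ESW against CW (407 and 474 on omitting CW replicates 2 and 3, 571 and 314 on omitting ESW replicates 2 and 3) and from 5 to 51 for CW against Control (5 without CW replicate 3, 11 without CW replicate 2, 14 without CW replicate 1, 13 and 17 without Control replicates 2 and 1, 51 without Control replicate 3). Listed related genes ran from 4 to 8 and from 1 to 10. Values that were not called changed sign for S100a13 (-0.01 to 0.36 for ESW against CW, -0.31 to 0.07 for CW against Control) and S100a6 (-0.20 to 0.04 for CW against Control). For ESW against Control this was so for S100a16 (-0.04 to 0.16) and S100a1 (-0.35 to 0.03), and over all alternatives S100a11 ran from -0.03 to 0.04. The causes were not tested. Correlations of deviations from the group mean ran from -0.118 to 0.0402 for same-numbered libraries and from -0.0409 to 0.0866 for differently numbered ones. They gave no sign of pairing by replicate number but cannot exclude it. With the replicate number as a block 971 and 949 genes were called for ESW against Control and CW and 25 for CW against Control, 3 and 3 members, and 5 and 6 listed related genes. With only the groups compared 5 listed related genes were called against Control.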
